A study of Mus musculus with 12 samples.

Results

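The 9 genes described here encode the enzymes of the serine synthesis pathway (*Phgdh*, *Psat1* and *Psph*) and of the folate one-carbon pathway (*Shmt1*, *Shmt2*, *Mthfd1*, *Mthfd2*, *Mthfd1l* and *Aldh1l2*). They were taken by gene symbol from a table of RNA-seq read counts with 54532 genes, and all 9 were among the 14894 genes tested. The RNA was that of WT C57BL/6 mouse bone marrow, grown in culture for 5 days with GM-CSF and IL-6, cytokines that drive the formation of immunosuppressive myeloid cells. The vehicle group received 0.1% DMSO, and the other groups received 10 µM or 50 µM indole-3-propionic acid (IPA), a product of bacterial tryptophan metabolism. Each group had 4 libraries. The study's paper reports a slight loss of cell viability at 50 µM in this culture, and centred its RNA-seq analysis on 10 µM. The part of this loss in the changes at 50 µM was not tested. The design asks how the genes these cells express change with IPA and with its dose. The cells were a mixed culture with no sorting step named in the labels, so a lower share of one cell type and less RNA per cell cannot be told apart.

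Serine is made from the glycolytic intermediate 3-phosphoglycerate by 3 enzymes in sequence, PHGDH, PSAT1 and PSPH. The SHMT enzymes then move a one-carbon unit from serine to tetrahydrofolate and leave glycine, SHMT1 in the cytosol and SHMT2 in mitochondria. Mitochondrial MTHFD2, MTHFD1L and ALDH1L2 and cytosolic MTHFD1 interconvert the folate forms, which feed the synthesis of purines and thymidylate, the recycling of homocysteine to methionine and, through ALDH1L2, the production of NADPH. Many of these genes are known targets of ATF4, the transcription factor of the amino acid and integrated stress response.

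At 50 µM IPA, 5 of the 9 genes were higher than with vehicle and 1 was lower at an adjusted p under 0.05 (edgeR's quasi-likelihood test, Benjamini-Hochberg adjustment over all genes tested). *Aldh1l2*, *Psph*, *Mthfd2*, *Shmt2* and *Psat1* rose, and *Shmt1* fell. Of all genes tested, 13.5% passed in this comparison, 7.0% higher and 6.5% lower. At 10 µM none of the 9 passed by edgeR, where 0.41% of all genes did. DESeq2 called none of them either, and 1 gene, *Phgdh*, was under 0.05 before adjustment by edgeR. Of all genes tested, 8.78% were under 0.05 before adjustment at 10 µM, 27.9% at 50 µM against vehicle and 29.5% between the doses, and DESeq2 called 1.68%, 17.1% and 18.7%. Between 50 µM and 10 µM, 6 genes were higher and 2 lower at the higher dose, against 15.4% of all genes in either direction, 7.52% higher and 7.85% lower. The median log2 fold change of the 9 genes was -0.04 at 10 µM and 0.50 at 50 µM, both against vehicle, and 0.53 between the doses. The medians over all genes tested were -0.01, 0.01 and 0.01. The 3 comparisons share libraries in pairs, so their values stand side by side and are not independent of each other.

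At 50 µM the 4 libraries lay outside the range of the vehicle libraries for 6 of the 9 genes, as for 20.0% of all genes tested. At 10 µM this held for 0 of the 9 genes, and for 6.13% of all genes. Between the doses it held for 8 of the 9, and for 20.3% of all genes.

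**Figure D1:**
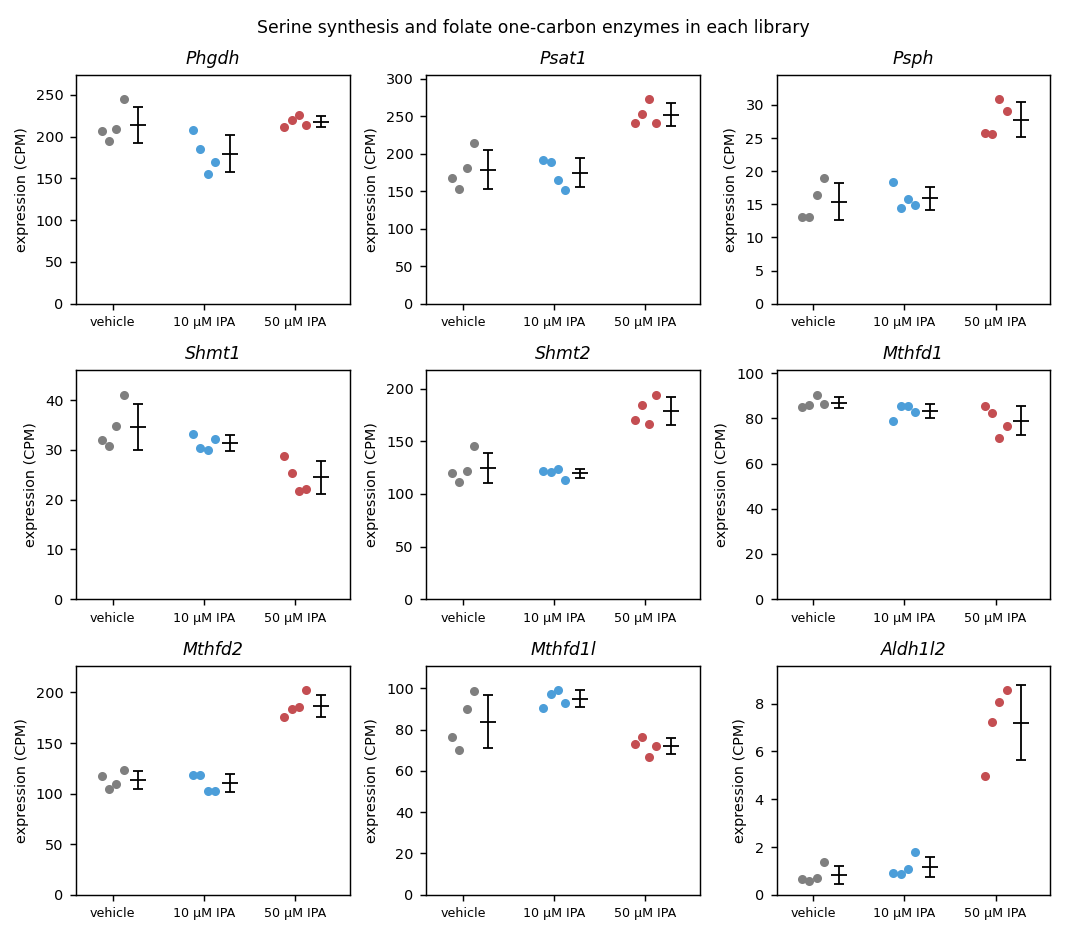
Expression of the 9 enzyme genes in CPM (read counts scaled to library size by TMM, y axis, starting at 0) in vehicle, 10 µM IPA and 50 µM IPA cultures (x axis). Each point is a library, in replicate order from left to right, and the bar beside the points is the mean ± SD of 4 libraries. The 50 µM points sit above both other groups for Psat1, Psph, Shmt2, Mthfd2 and Aldh1l2 and below both for Shmt1.

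The libraries held between 20451312 and 28038612 counted reads, and each of the 9 genes passed the expression filter in all 12 libraries. Nothing in the labels says whether the 4 cultures of a group came from separate animals, so p-values measure the spread between these libraries only. Vehicle replicate 4 had the highest vehicle level of 8 of the 9 genes (not *Mthfd1*), and vehicle replicate 2 had the lowest of 8 (not *Mthfd1*). Over all genes tested, vehicle replicates 2 and 4 were also the within-group pair furthest apart (chi-square per degree of freedom 57.31). The order of these libraries can therefore not be called particular to the 9 genes. Without vehicle replicate 4, 6 of the 9 genes were still called at 50 µM against vehicle, 5 higher and 1 lower. Myeloid markers were abundant, with a summed level of 20120 to 28440 CPM for 10 neutrophil markers and 1690 to 1881 CPM for 8 macrophage markers in vehicle libraries, where 5 erythroid markers summed to between 0.719 and 1.30 CPM.

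*Phgdh* encodes the enzyme of the first step of serine synthesis and lies on chromosome 3 (GRCm38, 98313170 to 98339990, minus strand). It was measured at 206.5, 194.5, 209.8 and 245.1 CPM in vehicle libraries 1 to 4, at 207.7, 185.0, 155.5 and 170.0 CPM at 10 µM, and at 211.8, 220.1, 226.5 and 213.9 CPM at 50 µM. The 50 µM libraries lay inside the vehicle range and above all 10 µM libraries. The mean was 214.0 ± 21.75 CPM with vehicle, 179.5 ± 22.29 CPM at 10 µM and 218.1 ± 6.625 CPM at 50 µM (SD, n = 4 each). The log2 fold change at 50 µM against vehicle was 0.03 (SE 0.0801, edgeR adjusted p = 0.827), with a 95% interval of -0.14 to 0.21. *Phgdh* was higher at 50 µM than at 10 µM (log2 fold change 0.28, SE 0.0787, edgeR adjusted p = 0.0228). That call was lost without 10 µM replicate 3 (adjusted p = 0.0760), 10 µM replicate 4 (0.0548) or 50 µM replicate 2 (0.0584). At 10 µM against vehicle the log2 fold change was -0.25 (SE 0.0971, edgeR unadjusted p = 0.0237, adjusted p = 0.443). Of the 50-base stretches of *Phgdh* transcripts, 47.8% also occur in transcripts of 23 other genes, most of them pseudogenes. The 22 of these that the table lists held together between 0.968% and 2.06% of the counts of *Phgdh* in a library, so the split of reads among copies is uncertain.

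*Psat1* encodes the aminotransferase of the next step (chromosome 19, 15904678 to 15947337, minus strand). Its levels were 166.9, 153.1, 180.4 and 214.7 CPM with vehicle, 191.9, 189.0, 165.2 and 151.6 CPM at 10 µM, and 240.7, 253.2, 272.6 and 240.6 CPM at 50 µM. Every 50 µM library lay above all 8 others. *Psat1* rose from 178.8 ± 26.42 CPM with vehicle to 251.8 ± 15.06 CPM at 50 µM, a log2 fold change of 0.50 (SE 0.0991, edgeR adjusted p = 0.00493), and was also higher than at 10 µM (0.53, SE 0.0787, adjusted p = 0.000282). At 10 µM the mean was 174.4 ± 19.34 CPM and the log2 fold change against vehicle -0.04 (edgeR adjusted p = 0.967).

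*Psph*, which encodes the phosphatase that releases serine, was the least abundant of the serine synthesis genes (chromosome 5, 129765558 to 129787449, minus strand). Vehicle libraries had 13.13, 13.11, 16.35 and 18.96 CPM, 10 µM libraries 18.37, 14.48, 15.77 and 14.93 CPM, and 50 µM libraries 25.70, 25.54, 30.88 and 29.02 CPM. The vehicle and 10 µM ranges overlapped, and the 50 µM libraries lay above both. From 15.39 ± 2.83 CPM with vehicle, *Psph* rose to 27.78 ± 2.614 CPM at 50 µM (log2 fold change 0.86, SE 0.128, edgeR adjusted p = 0.000726), a fold of 1.82. The rise over 10 µM (15.88 ± 1.738 CPM) was 0.81 on the log2 scale (SE 0.102, edgeR adjusted p = 6.17e-05). *Psph* shares 452 exon bases with *Cct6a* on the other strand. *Cct6a*, a chaperonin subunit gene, was measured at 286.0 CPM with vehicle and 272.9 CPM at 50 µM (log2 fold change -0.06, edgeR adjusted p = 0.741). The strand setting of the counting is not given in the sources used here, so reads of the shared bases cannot be assigned to one of the pair.

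The ratio of *Psat1* to *Phgdh* differed between the groups. Per kilobase of exon, *Psat1* stood at 0.487 ± 0.0246 of the level of *Phgdh* with vehicle, 0.570 ± 0.0468 at 10 µM and 0.674 ± 0.0202 at 50 µM (SD, n = 4). The vehicle ratios ran from 0.460 to 0.512, the 10 µM ratios from 0.521 to 0.621 and the 50 µM ratios from 0.658 to 0.703. No range overlapped the next. The ratio is a description, with no test.

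**Figure D2:**
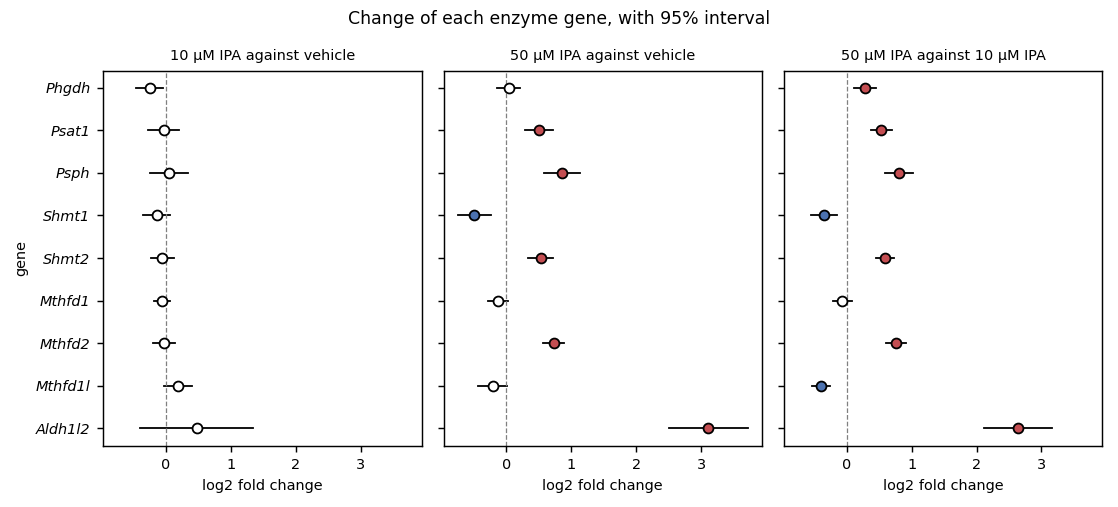
Log2 fold change (x axis) of each of the 9 enzyme genes (y axis) in the 3 comparisons, with the 95% interval as a line. Filled points passed an adjusted p under 0.05, red for higher and blue for lower, and open points did not. No point is filled at 10 µM, 6 are filled at 50 µM against vehicle and 8 between the doses, with Aldh1l2 far to the right in both of the last.

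*Shmt1* and *Shmt2* encode the cytosolic and the mitochondrial form of serine hydroxymethyltransferase, and they moved in opposite directions at 50 µM. *Shmt2* (chromosome 10, 127517123 to 127522444, minus strand) stood at 120.0, 111.5, 121.4 and 145.6 CPM with vehicle, 121.5, 120.7, 123.3 and 113.0 CPM at 10 µM, and 170.0, 184.6, 166.2 and 194.4 CPM at 50 µM. All 50 µM libraries were above the other 8. It rose from 124.6 ± 14.66 to 178.8 ± 13.05 CPM between vehicle and 50 µM, a log2 fold change of 0.53 (SE 0.0914, edgeR adjusted p = 0.00203). Against 10 µM (119.6 ± 4.525 CPM) the log2 fold change was 0.58 (SE 0.066, edgeR adjusted p = 2.38e-05). On the opposite strand it shares 32 exon bases with *Ndufa4l2*, which was at 0.701 CPM with vehicle and 0.0763 CPM at 50 µM.

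Shmt1 (chromosome 11, 60788104 to 60811718, minus strand) was measured at 32.08, 30.75, 34.77 and 41.11 CPM with vehicle, 33.11, 30.36, 29.91 and 32.20 CPM at 10 µM, and 28.83, 25.36, 21.75 and 22.05 CPM at 50 µM. The highest 50 µM library lay just under the lowest library of each other group. Shmt1 fell from 34.68 ± 4.603 CPM with vehicle to 24.50 ± 3.317 CPM at 50 µM (log2 fold change -0.49, SE 0.116, edgeR adjusted p = 0.0132). When each library was left out in turn, the adjusted p of this fall stayed between 0.00839 and 0.0497. The fall from 10 µM (31.39 ± 1.512 CPM) was -0.36 on the log2 scale (SE 0.0953, edgeR adjusted p = 0.0191). Without 50 µM replicate 3 the log2 fold change was -0.30 and no longer passed (adjusted p = 0.0517), and without 50 µM replicate 4 it was -0.31 (0.0668). Shmt1 shares 184 exon bases with Smcr8 on the opposite strand, which was at 111.8 CPM with vehicle and 107.2 CPM at 50 µM (log2 fold change -0.05, edgeR adjusted p = 0.767).

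Per kilobase of exon, *Shmt2* was 4.50 ± 0.136 times *Shmt1* with vehicle, 4.77 ± 0.349 times at 10 µM and 9.25 ± 1.502 times at 50 µM (SD, n = 4). The 50 µM libraries gave 7.37, 9.09, 9.55 and 11.0, and the 8 others lay between 4.36 and 5.15. Each 50 µM library had a higher ratio than any other library, which already follows from the separate ranges of the 2 genes given above.

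**Figure D3:**
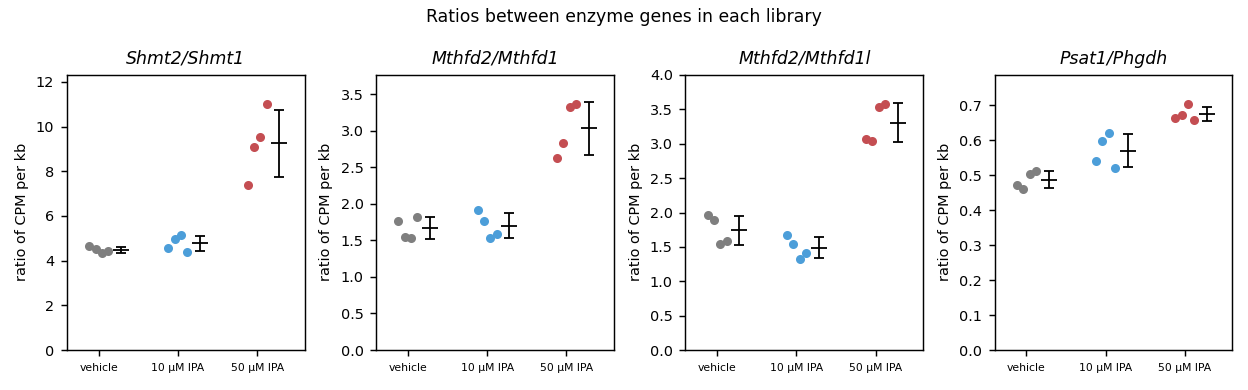
Ratio of CPM per kilobase of exon (y axis, starting at 0) between pairs of enzyme genes in each library, by group (x axis). Each point is a library, and the bar is the mean ± SD of 4 libraries. The 50 µM points lie above all others in the 4 panels, from 7.37 to 11.0 for Shmt2 to Shmt1 against 4.36 to 5.15 in the other groups.

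*Mthfd2* encodes the mitochondrial methylenetetrahydrofolate dehydrogenase and cyclohydrolase (chromosome 6, 83305691 to 83325908, minus strand). Its levels were 117.4, 104.2, 109.1 and 123.2 CPM with vehicle, 118.8, 118.0, 102.9 and 103.0 CPM at 10 µM, and 176.2, 183.4, 185.7 and 202.3 CPM at 50 µM. The lowest 50 µM library was well above the highest of the others. *Mthfd2* rose from 113.5 ± 8.465 CPM with vehicle to 186.9 ± 11.07 CPM, a log2 fold change of 0.73 (SE 0.0778, edgeR adjusted p = 6.48e-05). Against 10 µM (110.7 ± 8.928 CPM) it rose by 0.76 on the log2 scale (SE 0.071, edgeR adjusted p = 3.64e-06). Its closest relative, *Mthfd2l*, another mitochondrial enzyme of the same step, was low, at 3.08 ± 0.56 CPM with vehicle and 3.92 ± 0.880 CPM at 50 µM (log2 fold change 0.36, SE 0.215, edgeR adjusted p = 0.304). The ratio of *Mthfd2* to *Mthfd2l* per kilobase of exon was 57.43 to 89.48 with vehicle, 46.97 to 54.92 at 10 µM and 78.16 to 134.9 at 50 µM, so the vehicle and 50 µM libraries overlapped and the 10 µM libraries lay below both.

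*Aldh1l2*, the gene of the mitochondrial formyltetrahydrofolate dehydrogenase, was the least abundant of the 9 and had the largest fold change of them (chromosome 10, 83487450 to 83534140, minus strand). Vehicle libraries had 18, 15, 16 and 35 reads, 10 µM libraries 25, 18, 29 and 39, and 50 µM libraries 102, 197, 166 and 204. In CPM these were 0.681, 0.557, 0.717 and 1.39 with vehicle, 0.906, 0.872, 1.09 and 1.79 at 10 µM, and 4.98, 7.22, 8.06 and 8.57 at 50 µM. The 50 µM group had no library near the others, and its replicate 1 was its lowest. *Aldh1l2* rose from 0.837 ± 0.376 CPM with vehicle to 7.21 ± 1.58 CPM at 50 µM, a fold of 8.64 (log2 fold change 3.11, SE 0.281, edgeR adjusted p = 1.5e-05). This was rank 14 of the 14894 genes tested, ordered from the highest log2 fold change. Over 10 µM (1.16 ± 0.426 CPM) the fold was 6.24 (log2 fold change 2.64, SE 0.247, edgeR adjusted p = 3.64e-06). The counts with vehicle are small, and with single libraries left out the log2 fold change at 50 µM ran from 2.95 to 3.47. At 10 µM the log2 fold change against vehicle was 0.47 with an interval of -0.40 to 1.34 (edgeR adjusted p = 0.836), and with single libraries left out it ran from 0.20 to 0.83.

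*Aldh1l2* shares 1056 exon bases with *D10Wsu102e* on the opposite strand. That gene was at 52.55 CPM with vehicle and 50.61 CPM at 50 µM (log2 fold change -0.05, edgeR adjusted p = 0.770). Reads of the shared bases cannot be assigned to one of the pair. In all, 13.6% of the 50-base stretches of *Aldh1l2* transcripts also occur in 13 other genes, *D10Wsu102e* included. The 12 of these that the table lists held together between 1433 and 2050 counts in a library at 50 µM and between 1728 and 2015 with vehicle, many more than *Aldh1l2* itself, so the split of reads among them is uncertain. The cytosolic relative *Aldh1l1* was at 7.11 ± 0.757 CPM with vehicle and 8.62 ± 2.04 CPM at 50 µM (log2 fold change 0.29, SE 0.164, edgeR adjusted p = 0.28). Per kilobase of exon, *Aldh1l2* was at 0.0692 ± 0.0235 of *Aldh1l1* with vehicle, 0.0908 ± 0.0363 at 10 µM and 0.511 ± 0.109 at 50 µM.

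*Mthfd1l*, which encodes the mitochondrial formyltetrahydrofolate synthetase that releases formate, did not rise with its mitochondrial neighbours (chromosome 10, 3973118 to 4167081, plus strand). It was at 76.30, 70.34, 90.20 and 98.52 CPM with vehicle, 90.35, 97.51, 99.15 and 92.70 CPM at 10 µM, and 72.85, 76.69, 66.95 and 71.94 CPM at 50 µM. The 50 µM libraries lay below all 10 µM libraries and overlapped the vehicle range, which was wide. The means were 83.84 ± 12.85, 94.93 ± 4.101 and 72.11 ± 4.007 CPM. Between 10 µM and 50 µM the fall was -0.39 on the log2 scale (SE 0.0662, edgeR adjusted p = 0.000843). Against vehicle the log2 fold change was 0.18 at 10 µM (SE 0.0987, edgeR adjusted p = 0.677) and -0.21 at 50 µM (SE 0.103, adjusted p = 0.207, 95% interval -0.43 to 0.01).

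*Mthfd1*, the gene of the cytosolic enzyme that joins 3 activities in 1 protein, passed in no comparison (chromosome 12, 76255298 to 76319803, plus strand). Its levels were 84.81, 86.01, 90.47 and 86.15 CPM with vehicle, 78.97, 85.50, 85.26 and 82.80 CPM at 10 µM, and 85.35, 82.56, 71.27 and 76.65 CPM at 50 µM. All 3 groups overlapped. The log2 fold change at 50 µM against vehicle was -0.13 (SE 0.0748, edgeR adjusted p = 0.286, 95% interval -0.29 to 0.03). That interval lies below the log2 fold change of each of the 5 genes that rose.

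By compartment, 3 of the 4 mitochondrial folate genes were higher at 50 µM than with vehicle and none was lower, and of the 2 cytosolic genes none was higher and 1 was lower. Over all genes tested, 7.0% were higher and 6.5% lower, and with only 2 cytosolic genes the compartments were not compared by a test. Per kilobase of exon, *Mthfd2* stood at 1.67 ± 0.148 times *Mthfd1* with vehicle, 1.70 ± 0.173 times at 10 µM and 3.04 ± 0.363 times at 50 µM. *Mthfd2* to *Mthfd1l* went from 1.74 ± 0.209 with vehicle to 1.49 ± 0.153 at 10 µM and 3.31 ± 0.286 at 50 µM. The 50 µM libraries lay above the 8 others for both ratios.

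In CPM per kilobase of exon, *Phgdh* had the highest level of the 9 in each group (86.07 ± 8.748 with vehicle, 72.22 ± 8.968 at 10 µM, 87.72 ± 2.665 at 50 µM). *Psat1* (42.02 ± 6.210 with vehicle) and *Shmt2* (40.09 ± 4.717) followed, and their ranges overlapped in each group. *Mthfd2* was below the lowest *Shmt2* library with vehicle and at 10 µM, and the 2 overlapped at 50 µM (57.51 ± 4.198 for *Shmt2*, 53.60 ± 3.174 for *Mthfd2*). *Mthfd1* and *Mthfd1l* came next and overlapped with vehicle and at 50 µM but not at 10 µM, where *Mthfd1l* was higher. *Shmt1* was above *Psph* in each vehicle and 10 µM library, and at 50 µM their ranges overlapped at means of 6.308 and 6.418. *Aldh1l2* was the lowest throughout, from 0.112 ± 0.0501 with vehicle to 0.961 ± 0.211 at 50 µM.

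Within groups, once each group's mean was removed, the 12 libraries showed how far the 9 genes varied together. Correlations of log2 CPM were highest for *Phgdh* with *Psat1* (r = 0.851), *Shmt2* with *Mthfd1l* (0.772) and *Phgdh* with *Mthfd2* (0.751), and lowest for *Mthfd1* with *Aldh1l2* (-0.425). These are descriptions over libraries that also share their depth and their culture. Over the 12 libraries, the genes whose log2 CPM was closest to the mean of standardised *Phgdh*, *Psat1* and *Psph* were *Cox7c* (Pearson r = 0.970), *Elovl5* (0.967), *Odc1* (0.960), *Ifitm3* (0.955), *Idh3g* (0.952), *Idh2* (0.947), *Echs1* (0.946) and *Hax1* (0.942). *Cox7c* encodes a subunit of cytochrome c oxidase, *Odc1* the first enzyme of polyamine synthesis, *Idh2* an isocitrate dehydrogenase and *Idh3g* a subunit of a different one. At 50 µM against vehicle, *Elovl5*, *Idh3g* and *Idh2* did not pass (edgeR adjusted p = 0.137, 0.104 and 0.102), and the other genes of this ranking did. The r of the folate genes with the same mean was 0.899 for *Mthfd2*, 0.893 for *Shmt2* and 0.809 for *Aldh1l2*, and it was -0.488 for *Shmt1*, -0.507 for *Mthfd1l* and -0.552 for *Mthfd1*.

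The stretch of 100 bases before the transcription start is shown for the 3 of the 9 genes whose start is placed within 50 bases by RefSeq and by GENCODE, 2 of which rose and 1 of which fell between 10 µM and 50 µM. The sequences are from RefSeq's GRCm38.p6 windows, read along the gene's own strand and ending before the more upstream of the 2 starts, and capitals mark CG dinucleotides.
Phgdh (chr3:98339991-98340090, minus strand): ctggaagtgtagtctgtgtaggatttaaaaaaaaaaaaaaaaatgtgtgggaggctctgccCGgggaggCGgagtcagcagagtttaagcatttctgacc
Shmt2 (chr10:127522445-127522544, minus strand): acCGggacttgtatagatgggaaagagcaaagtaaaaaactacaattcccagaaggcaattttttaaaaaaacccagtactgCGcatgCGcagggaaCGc
Mthfd1l (chr10:3972975-3973074, plus strand): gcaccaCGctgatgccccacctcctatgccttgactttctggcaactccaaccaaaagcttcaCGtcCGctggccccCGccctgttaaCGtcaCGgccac
The *Phgdh* stretch holds 2 CG dinucleotides and 45.0% G or C, that of *Shmt2* 4 and 43.0%, and that of *Mthfd1l* 6 and 61.0%. RefSeq windows of 250 bases before and 50 after the start were found for 8 of the 9 genes (none for *Aldh1l2*). None of these windows holds the letters TGATGNAA, a core of ATF4 response elements, on either strand, and 3.97% of all 32851 windows do. None holds CACGTG, the E-box core, which 7.15% of all windows hold. With matches this rare and so few windows, finding none does not show that these genes lack such elements. For *Mthfd2* and *Psat1* the RefSeq starts lie at least 8304 bases inside the GENCODE gene, so these windows may miss other starts. The GENCODE start of *Shmt1* lies 453 bases upstream of the RefSeq start, outside the window, and that of *Psph* 196 bases upstream, within it.

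Of the 18 tested genes of the amino acid response list, most of them known targets of ATF4, 13 were higher and none lower at 50 µM than with vehicle, against the 7.0% and 6.5% of all genes, and their median log2 fold change was 0.52. At 10 µM none of the 18 passed by edgeR, 3 were under 0.05 before adjustment and 1 passed by DESeq2. Against 10 µM, 12 were higher at 50 µM and none lower, with a median of 0.45 (DESeq2 called 12 higher and 1 lower). This list was already known to move in these libraries, so its count is not independent evidence.

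*Atf4* itself rose from 281.9 ± 5.737 CPM with vehicle to 397.0 ± 38.08 CPM at 50 µM (log2 fold change 0.50, SE 0.0763, edgeR adjusted p = 0.000851), and was at 276.9 ± 13.06 CPM at 10 µM. *Asns*, asparagine synthetase, rose from 66.68 ± 9.326 to 132.9 ± 15.53 CPM (1.00, SE 0.109, adjusted p = 7.59e-05). *Trib3*, a pseudokinase that restrains ATF4, rose from 14.30 ± 3.636 to 35.73 ± 6.819 CPM (1.33, SE 0.174, adjusted p = 0.000284). *Chac1*, a glutathione-degrading enzyme, had a log2 fold change of 1.03 (edgeR adjusted p = 0.00143), *Ddit3*, the stress factor CHOP, of 0.99 (0.00199), and *Sesn2*, a leucine sensor of the mTORC1 pathway, of 0.50 (0.000500).

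Of 5 other known regulators tested, none was higher and 2 were lower at 50 µM than with vehicle, by edgeR and by DESeq2, and none of the higher ones was under 0.05 before adjustment. Over all genes tested, 7.0% were higher and 6.5% lower by edgeR, and DESeq2 called 17.1% in either direction. *Myc* was at 166.1 ± 8.025 CPM with vehicle, 160.2 ± 4.482 CPM at 10 µM and 161.6 ± 8.696 CPM at 50 µM (log2 fold change at 50 µM -0.03, SE 0.0708, edgeR adjusted p = 0.819). *Nfe2l2*, the gene of NRF2, fell by 0.30 on the log2 scale (edgeR adjusted p = 0.00883), and *Trp53* fell by 0.25 (0.0372).

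**Figure D4:**
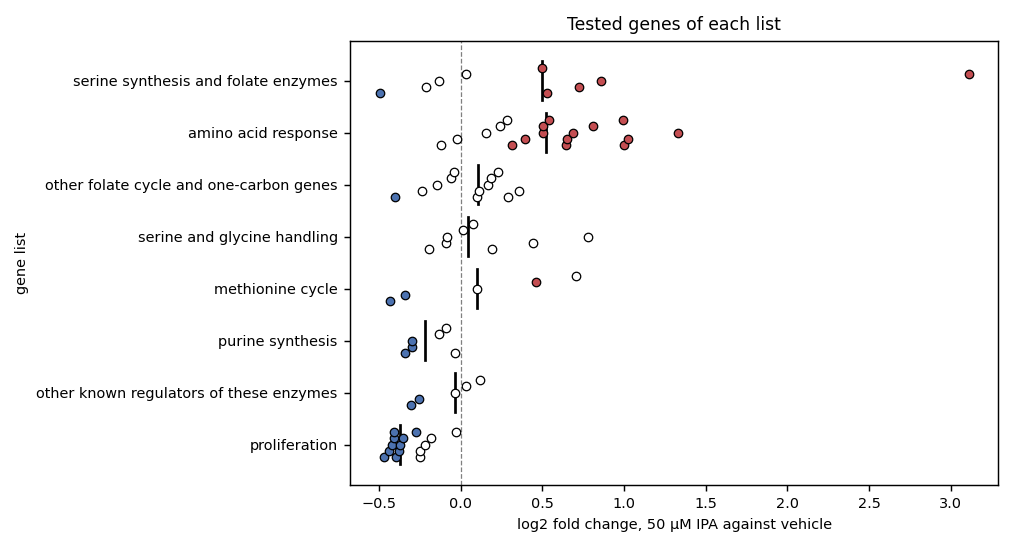
Log2 fold change at 50 µM IPA against vehicle (x axis) of each tested gene, by list (y axis). Filled points passed an adjusted p under 0.05, red for higher and blue for lower, open points did not, and the black bar is the median of the list. The serine and folate enzymes and the amino acid response genes have medians of 0.50 and 0.52, and the proliferation genes one of -0.37.

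Of 12 other tested genes of folate and one-carbon metabolism, none was higher and 1 was lower at 50 µM than with vehicle by edgeR, with a median log2 fold change of 0.11. DESeq2 also called none higher and 1 lower, and none of the higher ones was under 0.05 before adjustment. Over all genes tested, 7.0% were higher and 6.5% lower by edgeR, so 1 gene lower of 12 is near that share. The gene that fell was *Tyms*, thymidylate synthase, from 65.75 ± 5.787 CPM with vehicle to 49.44 ± 5.982 CPM at 50 µM (log2 fold change -0.40, SE 0.0989, edgeR adjusted p = 0.0162). Of 8 tested genes of serine and glycine handling none passed by edgeR in any of the 3 comparisons. Before adjustment 1 of them was under 0.05 at 10 µM, 2 at 50 µM against vehicle and 0 between the doses, and DESeq2 called 1, 0 and 0. The shares over all genes in the same order were 8.78%, 27.9% and 29.5% before adjustment, and 1.68%, 17.1% and 18.7% by DESeq2.

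Downstream of the folate cycle, 3 of 6 purine synthesis genes were lower at 50 µM than with vehicle and none was higher. The shares over all genes at 50 µM against vehicle, for this and the following lists, were 6.5% lower and 7.0% higher. *Gart*, *Pfas* and *Ppat* fell by 0.30, 0.34 and 0.29 on the log2 scale (edgeR adjusted p = 0.0253, 0.0313 and 0.0419). Of 5 methionine cycle genes, 1 was higher and 2 were lower. *Ahcyl1*, whose product is related to the enzyme AHCY but is known as a regulator of the IP3 receptor and not as an enzyme of the cycle, rose by 0.46 (edgeR adjusted p = 0.000447). *Ahcy* itself had a log2 fold change of 0.10 (edgeR adjusted p = 0.488), and *Mat2a* and *Mat2b*, the catalytic and the regulatory subunit of methionine adenosyltransferase, fell by 0.43 and 0.34 (0.00390 and 0.00921). At 10 µM none of the other folate, purine or methionine genes passed by edgeR or DESeq2, and 1, 1 and 0 of them were under 0.05 before adjustment.

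Other groups of genes moved at 50 µM beside the enzymes. Of 15 proliferation genes, 10 were lower than with vehicle and none higher, and their summed level was 3673 to 4178 CPM with vehicle, 3498 to 3772 CPM at 10 µM and 2983 to 3318 CPM at 50 µM. Of 10 neutrophil markers, 6 were lower and none higher, with a sum of 20120 to 28440 CPM with vehicle, 18640 to 21660 CPM at 10 µM and 14130 to 19710 CPM at 50 µM. Of 6 markers of Ly6C-high monocytes, 4 were lower and none higher (2535 to 3231, 3675 to 4748 and 2213 to 2953 CPM). A large part of these sums was 1 gene, *Fn1*, singled out after its values were seen, with means of 1451, 2554 and 1696 CPM with vehicle, at 10 µM and at 50 µM. Of 8 macrophage markers, 1 was higher and 2 were lower at 50 µM than with vehicle (1690 to 1881, 2009 to 2211 and 1708 to 1827 CPM). At 10 µM against vehicle, 1 of the 6 monocyte markers (*Fn1*) and 2 of the 8 macrophage markers (*C1qb* and *Mrc1*) were higher and none was lower by edgeR, where 0.329% of all genes were higher. DESeq2 called 2 and 4 of them higher, against 1.32% of all genes, and 3 and 6 were higher at an unadjusted p under 0.05, against 5.42%.

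Of 6 B cell markers, 5 were higher at 50 µM and none lower, at low levels (19.13 to 27.18 CPM summed with vehicle, 24.23 to 34.12 at 10 µM and 37.92 to 60.90 at 50 µM). Of 6 dendritic cell markers, 2 were higher and none lower by edgeR, and 1 was lower before adjustment and by DESeq2 (sums of 23.72 ± 1.297, 23.53 ± 1.622 and 28.20 ± 1.767 CPM, SD, n = 4). No tested marker of T and NK cells (4 tested), mast cells and basophils (4) or erythroid cells (1) passed by edgeR at 50 µM against vehicle. Before adjustment 0, 1 and 0 of these were under 0.05, and DESeq2 called 1 mast cell or basophil marker lower. Of all the markers, only the erythroid *Hbb-bs* was at 0 in each library of a group, with vehicle. The part of these shifts in the changes of the 9 enzyme genes was not tested. The summed level of the 9 enzyme genes was 764.1 to 974.7 CPM with vehicle, 762.0 to 861.5 CPM at 10 µM and 1016 to 1059 CPM at 50 µM, so all 4 libraries at 50 µM lay above the other 8.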

How the data were processed

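RNA-seq was done on 12 libraries of cultured mouse bone marrow cells, 4 for each of vehicle, 10 µM and 50 µM IPA. The authors aligned the trimmed reads to mm10 (GRCm38.p6) and deposited raw counts per Ensembl gene, and the submitters' processing notes name HISAT2 2.2.1 and featureCounts 2.0.1. The deposited counts are whole numbers, without normalization or filter. Library preparation was stranded, and the strand setting of the counting is not given in the sources used here. Totals ran from 20451312 to 28038612 reads per library. No library was a copy of another of its group (chi-square per degree of freedom at least 4.88 in 18 pairs within groups). Pairs across groups were not compared in this way. For 10 µM replicate 3, whose title duplicates another, the replicate number comes from the description.

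The 14894 genes above 0.5 CPM in 2 or more of the 12 libraries were tested. Each comparison was fitted on its 8 libraries with edgeR 4.0.16 under R 4.3.3 (TMM, then glmQLFit and glmQLFTest), p-values were adjusted over all genes by Benjamini-Hochberg, and the threshold was 0.05. The step was tested on simulated data. Alternatives were DESeq2 1.42.0, edgeR with the size factors of DESeq2, dropping the filter, requiring 10 counts in each library, 1 fit over 12 libraries, a replicate block and leaving out each library. CPM in the text are TMM-normalised over 12 libraries, mean ± SD, and exon lengths and positions are from GENCODE M21. Groups overlap where their ranges of CPM do. All 9 genes were named. Genes of the pathway lists were named when they passed in any comparison (at most the 6 smallest adjusted p per list), with *Mthfd2l*, *Aldh1l1*, *Atf4* and *Myc*. The 8 genes most like the serine synthesis genes were chosen by Pearson r. The genes and lists were chosen with earlier results of these data known. Overlapping genes named beside the 9 were found by position. Of the list of other folate genes, 2 are not reported here, and its counts are without them.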

Additional observations from a re-analysis of the deposited data

How the results depend on the processing

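The calls of the 9 enzyme genes at 50 µM changed with few settings. Against vehicle, the same 6 genes were called with DESeq2, with its size factors, without a filter, with at least 10 counts in each library, with all 12 libraries, and without any one library. Against 10 µM the 8 calls held under the same settings other than leaving out a library, where the genes called higher ranged from 5 to 6, those called lower from 1 to 2, and all calls from 7 to 8, by the loss of *Phgdh* or *Shmt1*. At 10 µM against vehicle none of the 9 was called under any setting. By replicate number the libraries showed little sign of pairing: in the 3 comparisons 0, 1 and 1 of 4 same-numbered pairs correlated above 0.1. These correlations are of deviations from the group means. Some unlike-numbered pairs correlated more, such as 10 µM replicate 1 with vehicle replicate 4 (r = 0.407). With 4 libraries per group, these values cannot decide whether cultures of different groups shared an animal. With the replicate block, 0, 6 and 8 of the 9 genes were called at 10 µM, at 50 µM against vehicle and between the doses, as without it, and over all genes 3, 1830 and 2200 were called against 61, 2010 and 2289 without it. Small changes that passed no test changed sign when 1 library was left out: at 10 µM, *Psat1* ranged from -0.104 to 0.065 on the log2 scale, *Psph* from -0.029 to 0.167, *Shmt2* from -0.111 to 0.024 and *Mthfd2* from -0.076 to 0.0056, and at 50 µM against vehicle *Phgdh* ranged from -0.016 to 0.108. Over all genes, the count at 10 µM was the least stable: 250 by DESeq2, 118 with all 12 libraries, 150 without a filter and 4 to 122 with a library left out. At 50 µM against vehicle it was 1248 to 2689 with a library left out. The cause was not tested. Counts were lowest for *Aldh1l2*, with 15 to 35 reads per vehicle library, so its relative counting error was the largest of the 9.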
